A study of Mus musculus with 20 samples.

Results

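Expression of the bile acid receptor FXR, its repressor partner and 8 bile acid and phospholipid transporters was examined in the livers of 20 male C57BL/6J mice. The genes were chosen by their symbols, and 10 of the 54532 genes in the count table bear them: *Nr1h4*, *Nr0b2*, *Slc10a1*, *Slco1a1*, *Slco1b2*, *Abcb11*, *Abcb4*, *Abcc2*, *Abcc3* and *Abcc4*. All mice had been made obese by 12 weeks of high-fat diet (HFD) and then underwent Roux-en-Y gastric bypass (RYGB), which reroutes the upper gut, or a sham operation. For 8 weeks afterwards they ate chow or HFD, which gave 4 groups of 5 mice with 1 liver RNA library per mouse: Sham Chow and Sham HFD, and RYGB Chow and RYGB HFD. The Chow mice were therefore previously obese mice and not mice that had never eaten HFD. By the description of the study, Sham HFD mice weighed more than the other groups, so body weight cannot be told apart from surgery and diet in comparisons with that group.

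Bile acids are made from cholesterol in hepatocytes, pumped across the canalicular membrane into bile and taken up again from portal blood across the sinusoidal membrane. FXR, encoded by *Nr1h4*, is the nuclear receptor that senses them. It is known to raise the bile salt export pump *Abcb11* and the corepressor *Nr0b2* (SHP), and SHP is known to restrain bile acid synthesis and uptake. FXR is known to bind, together with RXR, an inverted repeat of the half-site AGGTCA with 1 base between the copies (IR-1).

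The promoters of the members were searched for this repeat, written AGGTCANTGACCT, which reads the same on both strands. RefSeq gave promoter windows of 250 bases before to 50 after an annotated start for 9 of the 10 members (11 windows, GRCm38.p6). A window of *Abcb11* and one of *Slco1b2* matched 11 of the 12 fixed letters, which 27 of 32851 windows of all genes (0.0822%) equal or exceed. The 150 bases before the start are printed for these 2 genes because they hold the closest matches among the members, with the match in capitals. *Abcb11* is read on the minus strand of chr2:69342617-69342766 (match at -63 to -51 from the start) and *Slco1b2* on the plus strand of chr6:141629368-141629517 (match at -88 to -76).
Abcb11: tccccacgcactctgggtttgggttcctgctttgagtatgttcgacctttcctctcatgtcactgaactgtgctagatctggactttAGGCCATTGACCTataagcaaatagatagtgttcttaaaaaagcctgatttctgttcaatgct
Slco1b2: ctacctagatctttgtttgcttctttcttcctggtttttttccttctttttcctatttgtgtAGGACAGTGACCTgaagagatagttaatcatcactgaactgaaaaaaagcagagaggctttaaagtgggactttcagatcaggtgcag
The best match in *Slco1a1*, ATGAGATTGACCT at -141 to -129, and those in both windows of *Slc10a1* kept 9 of the 12 letters, which 11.4% of all windows equal or exceed. In *Nr0b2*, *Abcb4*, *Nr1h4*, *Abcc2* and the better of 2 *Abcc4* windows, 8 of 12 letters matched, which 56.4% of all windows equal or exceed. Sequence outside these windows was not searched, so a weak match here does not show that a gene lacks the repeat. The *Nr1h4* window (chr10:89506609-89506908) lies inside the span of the gene (chr10:89454234-89533585). These are matches of letters only, and binding was not measured.

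Levels are given as CPM, the count of a gene per 1e+06 counts of the mouse after TMM scaling. The libraries held 14604854 to 22537498 counts (median 19056997). All 10 members passed the filter of at least 2 CPM in at least 3 mice, as did 12289 genes in all. Defining hepatocyte markers were abundant in every mouse, with *Alb* between 928618 and 1755655 counts, while the cholangiocyte markers *Krt19*, *Krt7*, *Epcam* and *Cftr* stayed under the filter. Markers of other cells moved with diet: the summed level of 6 stellate cell markers was 102.9 to 134.1 CPM in Sham HFD and 30.5 to 63.8 CPM in the 15 other mice, and all 5 tested stellate markers were higher in Sham HFD than in Sham Chow. Of 6 Kupffer cell and macrophage markers, 4 were higher in Sham HFD than in Sham Chow, against 10.9% of all tested genes. The median log2 fold change of these 6 was 0.859 there and 0.857 in Sham Chow vs. RYGB Chow, where 0 were called. In RYGB Chow vs. RYGB HFD, 0 stellate and 0 Kupffer cell and macrophage markers were called. Endothelial markers differed in no contrast (0 of 5). Of 6 hepatocyte markers, 4 were higher in RYGB HFD than in Sham HFD, against 8.54% of all tested genes. Against 7.9%, 1 was lower there, *Ttr* (log2 fold change -0.45, adjusted p = 0.00412). In Sham Chow vs. Sham HFD, 3 were lower in Sham HFD (*Trf*, *Apoa1* and *Serpina1c*, against 10.7%) and 0 were higher. The summed level of the 6 hepatocyte markers, most of it *Alb*, was 71465 to 83422 CPM in Sham HFD and 97019 to 117509 CPM in RYGB HFD. It was 78725 to 98622 CPM and 73566 to 118919 CPM in the sham and RYGB mice on chow. The part of these shifts in the results below was not tested. In whole liver, fewer cells of a type and less RNA per cell cannot be told apart.

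Scaled to exon length, 2 of the 3 sinusoidal uptake carriers stood at the top of the members and the basolateral pump *Abcc4* at the bottom. Over the 20 mice *Slco1b2* averaged 314 CPM per kilobase of exon and *Slc10a1* 303 CPM per kilobase. *Abcb11* followed at 138 CPM per kilobase, *Slco1a1* at 82.8 and *Abcc2* at 80.7. *Nr1h4* (61.2), *Abcc3* (58.5), *Abcb4* (49.3) and *Nr0b2* (29.0 CPM per kilobase) were lower, and *Abcc4* averaged 0.480 CPM per kilobase. *Slco1a1* spanned the widest range, with its highest mouse at 69.4 times its lowest.

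**Figure D1:**
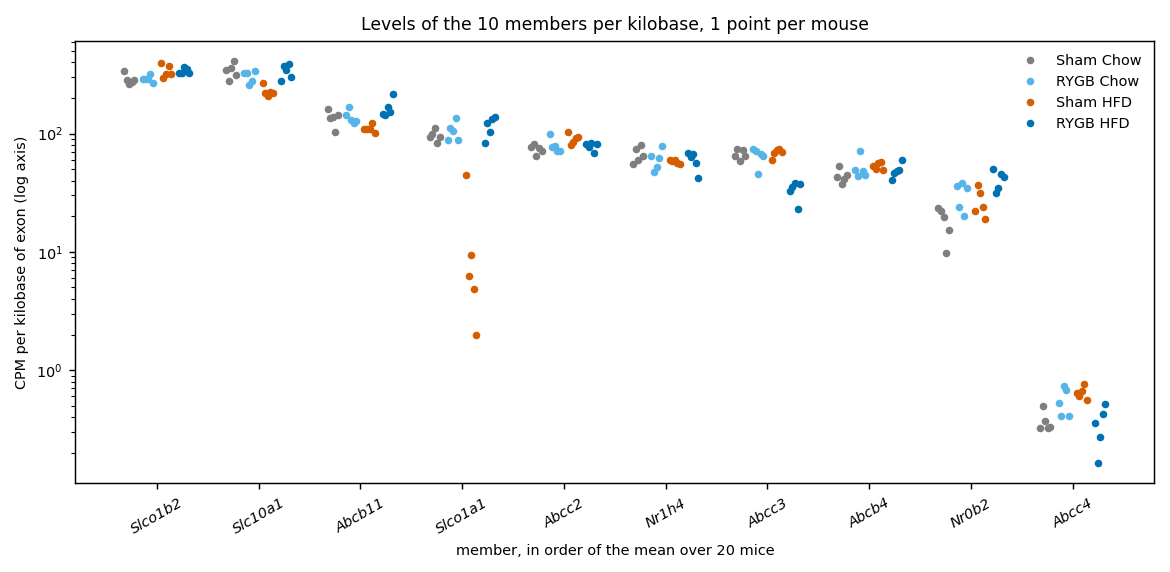
Each point is 1 mouse, the vertical log axis gives CPM per kilobase of exon, and members run in order of their mean over the 20 mice. The Sham HFD mice fall away from the other groups in *Slco1a1*, and *Abcc4* lies far below the other members at a mean of 0.480 CPM per kilobase.

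In all, 4 contrasts of 2 groups were tested, each fold change being the second group over the first, together with the surgery by diet interaction, which is the fold change of RYGB Chow vs. RYGB HFD less that of Sham Chow vs. Sham HFD. A gene is called at an adjusted p under 0.05. In Sham Chow vs. RYGB Chow, 0 of the 10 members were called in either direction, against 0.0488% of all tested genes higher and 0.00814% lower. In this contrast 2 members had an unadjusted p under 0.05 (*Nr0b2* and *Abcc4*), DESeq2 and limma-voom called 0 members as well, and 0 members had groups that did not overlap (1.33% of all tested genes). In Sham HFD vs. RYGB HFD, 3 members were higher in RYGB HFD (*Slco1a1*, *Slc10a1* and *Abcb11*, against 8.54% of all tested genes) and 2 were lower (*Abcc3* and *Abcc4*, against 7.9%). The 5 mice of one group lay beyond the 5 of the other for these same 5 members, and for 14.7% of all tested genes.

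With diet in sham mice, 4 members were called. In Sham Chow vs. Sham HFD, *Abcc2* and *Abcc4* were higher in Sham HFD, against 10.9% of all tested genes, and *Slc10a1* and *Slco1a1* were lower, against 10.7%. Groups did not overlap for 3 of these, *Slc10a1*, *Slco1a1* and *Abcc4*, and for 16.5% of all tested genes. In RYGB Chow vs. RYGB HFD, 0 members were higher (1.99% of all tested genes) and 1, *Abcc3*, was lower (1.65%). Groups did not overlap there for 2 members, *Abcc3* and *Slco1b2*, and for 5.05% of all tested genes. The interaction was positive for *Slc10a1* and *Slco1a1* (2.48% of all tested genes) and negative for *Abcc3* and *Abcc4* (2.58%). The contrasts share groups and are not independent of each other. The median log2 fold change of the members lay between 0.02 and 0.15 in the 4 contrasts, beside -0.00467 to 0.00946 for all tested genes.

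**Figure D2:**
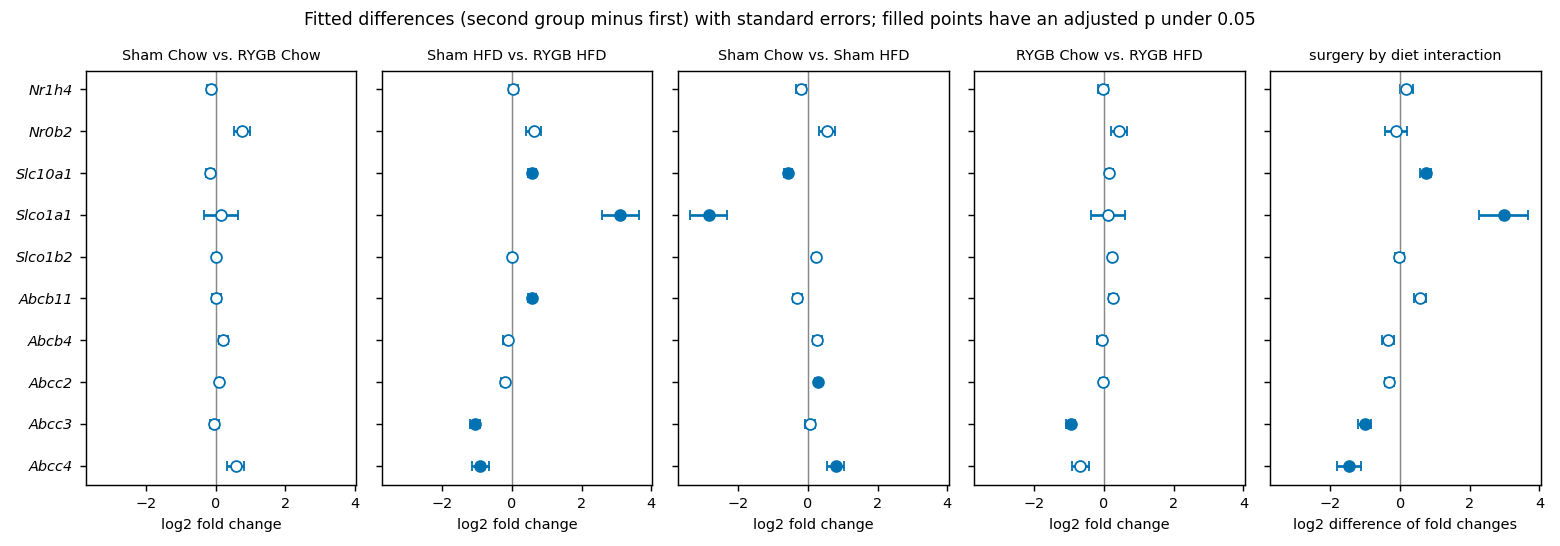
Points are the fitted log2 differences of the 10 members in the 4 contrasts (second group minus first) and in the interaction, bars are standard errors, and filled points passed the adjusted threshold. *Slco1a1* has the largest fitted difference of the members, 3.12 in Sham HFD vs. RYGB HFD, and *Nr1h4* is open in all 5 panels.

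*Nr1h4* (ENSMUSG00000047638, chr10:89454234-89533585, minus strand, GRCm38), the receptor itself, was not called in any contrast. On chow its level was 153 ± 22.6 CPM (mean ± SD, n = 5 mice) in sham and 140 ± 27.1 CPM in RYGB mice, and on HFD 133 ± 5.10 and 137 ± 25.4 CPM, and the 4 groups overlapped. Surgery on HFD gave a log2 fold change of 0.05 (approximate 95% interval -0.22 to 0.31). Diet in sham mice gave -0.20 (-0.46 to 0.06).

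*Nr0b2* (ENSMUSG00000037583, chr4:133553376-133556536, plus strand), which encodes the corepressor SHP, was lowest in Sham Chow and highest in RYGB HFD. The Sham Chow mice held 26.5, 25.2, 22.1, 11 and 17.2 CPM and the RYGB Chow mice 40.9, 26.9, 43.0, 22.5 and 39.2 CPM. The Sham HFD mice held 25.2, 41.2, 35.3, 26.8 and 21.4 CPM and the RYGB HFD mice 56.9, 35.8, 38.9, 51.5 and 48.8 CPM. Neighbouring groups overlapped, while every RYGB HFD mouse lay above every Sham Chow mouse. That crossed contrast, which changes surgery and diet together, gave a log2 fold change of 1.18 (SE 0.23, adjusted p = 0.00345). None of the 4 single-factor contrasts passed: the log2 fold changes were 0.75 for surgery on chow (adjusted p = 0.239), 0.63 for surgery on HFD (adjusted p = 0.0589), 0.55 for diet in sham mice (adjusted p = 0.0850) and 0.43 for diet in RYGB mice (adjusted p = 0.313). The value for surgery on HFD passed with DESeq2 (adjusted p = 0.0326) and limma-voom (adjusted p = 0.0470). It also passed without Sham Chow replicate 4, RYGB Chow replicate 4 or Sham HFD replicate 2 (adjusted p = 0.0316 to 0.0482). It did not pass in 17 of 20 fits without 1 mouse (adjusted p up to 0.147) and in 4 of 8 other settings (up to 0.126).

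*Slco1a1* (ENSMUSG00000041698, chr6:141907282-141946962, minus strand), which encodes the organic anion carrier OATP1A1 of the sinusoidal membrane, was low in the sham mice on HFD. The Sham Chow mice held 492, 526, 589, 439 and 492 CPM and the RYGB Chow mice 468, 589, 557, 719 and 464 CPM. The Sham HFD mice held 234, 33.1, 49.4, 25.5 and 10.4 CPM, whereas the RYGB HFD mice held 435, 649, 543, 701 and 724 CPM. Every Sham HFD mouse lay below all 15 others, and Sham HFD replicate 1 stood apart from its 4 group mates.

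Surgery on HFD gave *Slco1a1* a log2 fold change of 3.12 (SE 0.53, adjusted p = 4.06e-04), an 8.68-fold higher level after RYGB. Diet in sham mice gave -2.85 (SE 0.52, adjusted p = 7.64e-04). The contrasts among the 3 other groups gave log2 fold changes of 0.13 to 0.27 with adjusted p-values of 0.790 to 0.952, and their approximate 95% intervals reached from -0.83 to 1.22. These intervals rest on a spread shared by all groups, Sham HFD included. Sham Chow vs. RYGB Chow had an SE of 0.49 in this model and 0.13 with only the 2 groups (log2 fold change 0.14, adjusted p = 0.828). The interaction was 2.98 (SE 0.71, adjusted p = 0.0185). Without Sham HFD replicate 1 the remaining 4 mice averaged 29.6 ± 16.2 CPM, and the log2 values became 4.36 for surgery on HFD, -4.09 for diet in sham mice and 4.21 for the interaction. DESeq2 gave this gene no adjusted p in its default form. Reads could be shared with the neighbouring paralogs, since the treatment of reads that map to several genes is not given in the sources used here. *Slco1a4*, one such paralog, looked up after the values of *Slco1a1* were seen, was at 110 ± 34.2 CPM in Sham Chow and 103 ± 45.0 CPM in RYGB Chow, and on HFD at 76.2 ± 13.4 CPM in sham and 63.2 ± 19.3 CPM in RYGB mice.

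*Slc10a1* (ENSMUSG00000021135, chr12:80953183-80968705, minus strand) encodes NTCP, the sodium-coupled carrier for conjugated bile acids, and was lowest in Sham HFD too. The Sham HFD mice held 584, 485, 455, 495 and 480 CPM, replicate 1 again being the highest. Sham Chow mice lay between 612 and 906 CPM (750 ± 111), RYGB Chow mice between 561 and 749 (671 ± 79.6) and RYGB HFD mice between 617 and 851 (741 ± 102). The log2 fold change was 0.57 for surgery on HFD (SE 0.11, adjusted p = 0.00162) and -0.59 for diet in sham mice (SE 0.11, adjusted p = 0.00115). The interaction was 0.73 (SE 0.16, adjusted p = 0.0118). Against sham mice on chow, those on HFD had a 7.22-fold lower level of *Slco1a1* and a 1.5-fold lower level of *Slc10a1*.

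*Slco1b2* (ENSMUSG00000030236, chr6:141629518-141686646, plus strand), which encodes the related carrier OATP1B2 on the same chromosome, had no such drop. On chow it was at 1416 ± 146 CPM in sham and 1432 ± 92.4 CPM in RYGB mice, and on HFD at 1676 ± 206 and 1670 ± 94.5 CPM. Surgery on HFD gave a log2 fold change of -0.01 (approximate 95% interval -0.18 to 0.17). Its log2 fold changes between diets were 0.24 in sham mice (adjusted p = 0.0508) and 0.22 in RYGB mice (adjusted p = 0.168), and in the latter every RYGB HFD mouse lay above every RYGB Chow mouse. The diet value in sham mice sits at the threshold: DESeq2 gave an adjusted p of 0.0250, and scaling with RLE factors 0.0498. It passed as well without Sham Chow replicate 1, RYGB Chow replicate 3 or 5, or Sham HFD replicate 2 (adjusted p = 0.0145 to 0.0458). It did not pass in 16 of 20 fits without 1 mouse (adjusted p up to 0.130) and in 3 of 8 other settings (up to 0.147).

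The ratio of *Slco1a1* to *Slco1b2* per kilobase within a mouse, which does not depend on library scaling, was 0.338 ± 0.0575 in Sham Chow, 0.363 ± 0.0468 in RYGB Chow and 0.342 ± 0.0708 in RYGB HFD. In Sham HFD it was 0.112, 0.0213, 0.0295, 0.0130 and 0.00615, all below the lowest ratio of the other groups, 0.255.

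**Figure D3:**
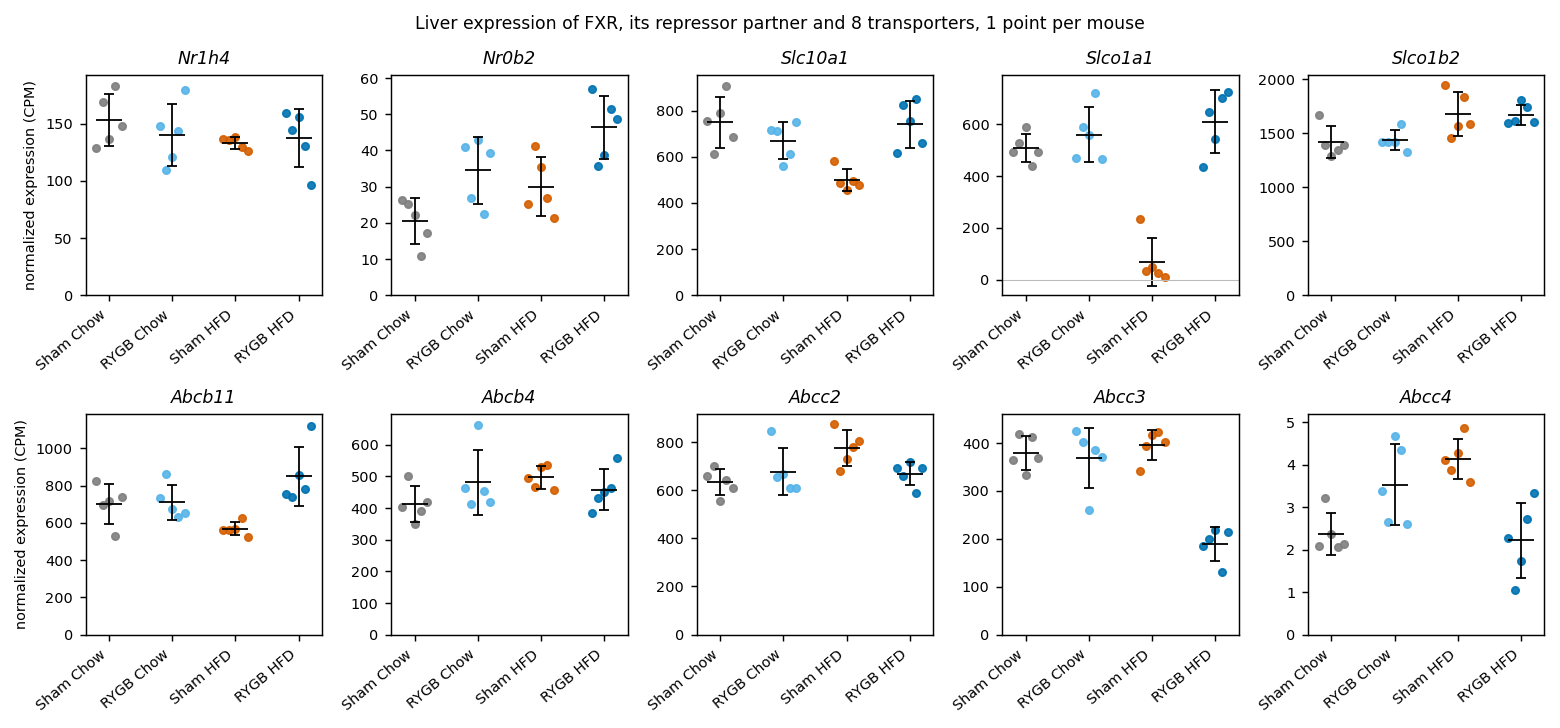
Points are single mice, horizontal bars are group means, error bars are SD (n = 5) and the vertical axes give CPM from 0. The Sham HFD mean is the lowest for *Slco1a1* and *Slc10a1*, and RYGB HFD lies lowest for *Abcc3*, at 130 to 218 CPM against 261 to 425 CPM in the other 3 groups.

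*Abcb11* (ENSMUSG00000027048, chr2:69238282-69342616, minus strand), the bile salt export pump BSEP of the canalicular membrane, was higher in RYGB HFD than in Sham HFD. The Sham HFD mice held 564, 562, 568, 628 and 525 CPM and the RYGB HFD mice 753, 740, 856, 783 and 1121 CPM, so the groups did not overlap. The log2 fold change was 0.58 (SE 0.12, adjusted p = 0.00233). On chow, Sham mice averaged 702 ± 107 CPM and RYGB mice 710 ± 92.2 CPM, with a log2 fold change of 0.02 (approximate 95% interval -0.22 to 0.25). The diet contrasts pointed opposite ways, -0.30 in sham mice (adjusted p = 0.0775) and 0.26 in RYGB mice (adjusted p = 0.246), and the interaction of 0.56 had an adjusted p of 0.0595 (0.0242 with DESeq2). Without Sham Chow replicate 4 the adjusted p was 0.0223 for diet in sham mice and 0.0251 for the interaction. Without RYGB HFD replicate 5 it was 0.0413 for diet in sham mice, and without RYGB Chow replicate 2 it was 0.0291 for the interaction. The interaction did not pass in 18 of 20 fits without 1 mouse (adjusted p up to 0.107) and in 5 of 7 other settings (up to 0.138). Diet in sham mice did not pass in 18 of 20 (up to 0.174) and 7 of 8 (up to 0.299). Exons of *Abcb11* overlap those of 2 genes on the opposite strand, *Gm13613* and *Gm13614*, which held at most 19 and 5 counts beside at least 7449 counts of *Abcb11*.

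*Abcb4* (ENSMUSG00000042476, chr5:8893717-8959231, plus strand), the canalicular floppase that delivers phosphatidylcholine to bile, was not called in any contrast. On chow it was at 414 ± 56.3 CPM in sham and 482 ± 103 CPM in RYGB mice, and on HFD at 497 ± 35.4 and 458 ± 64.4 CPM. Surgery on HFD gave a log2 fold change of -0.12 (approximate 95% interval -0.36 to 0.12). The ratio of *Abcb11* to *Abcb4* per kilobase within a mouse was 1.96 to 2.20 in Sham HFD and 3.07 to 3.65 in RYGB HFD, without overlap. In Sham Chow the ratio ran from 2.49 to 3.73 and in RYGB Chow from 1.85 to 3.8.

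*Abcc2* (ENSMUSG00000025194, chr19:43782192-43840740, plus strand) encodes MRP2, the canalicular pump for bilirubin and other conjugates. The Sham Chow mice held 658, 699, 556, 643 and 609 CPM and the Sham HFD mice 875, 679, 729, 780 and 805 CPM, with some overlap. The log2 fold change of 0.29 was small but passed (SE 0.09, adjusted p = 0.0332). It did not pass without the filter on low counts (adjusted p = 0.0769) or when any of 6 mice was left out, with adjusted p-values of 0.0509 to 0.0902: Sham Chow replicates 3, 4 and 5 and Sham HFD replicates 1, 4 and 5. In RYGB mice the level was 677 ± 97.8 CPM on chow and 669 ± 49.0 CPM on HFD (log2 fold change -0.02, approximate 95% interval -0.20 to 0.17).

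*Abcc3* (ENSMUSG00000020865, chr11:94343295-94392997, minus strand) encodes MRP3, which moves conjugates from the hepatocyte back into blood, and was low in RYGB HFD. The RYGB HFD mice held 185, 200, 218, 130 and 214 CPM, and the Sham HFD mice 343, 393, 417, 423 and 402 CPM. The RYGB Chow mice held 425, 402, 261, 385 and 371 CPM, and the Sham Chow mice 365, 419, 333, 413 and 369 CPM. Every RYGB HFD mouse lay below all 15 others. The log2 fold change was -1.06 for surgery on HFD (SE 0.13, adjusted p = 1.94e-05) and -0.96 for diet in RYGB mice (SE 0.13, adjusted p = 2.41e-04), with an interaction of -1.02 (SE 0.18, adjusted p = 0.00333). The remaining groups differed by log2 fold changes of -0.04 for surgery on chow and 0.06 for diet in sham mice, with approximate 95% intervals that stayed between -0.30 and 0.31. *Abcc3* was the only member called in RYGB Chow vs. RYGB HFD under each alternative that was run.

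The ratio of *Abcc3* to *Abcc2* per kilobase within a mouse, the blood-facing pump over the bile-facing one, was 0.421 ± 0.0563 in RYGB HFD (0.331 to 0.463). It was 0.899 ± 0.0465 in Sham Chow, 0.823 ± 0.152 in RYGB Chow and 0.774 ± 0.115 in Sham HFD, and the lowest ratio among these 15 mice was 0.587.

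**Figure D4:**
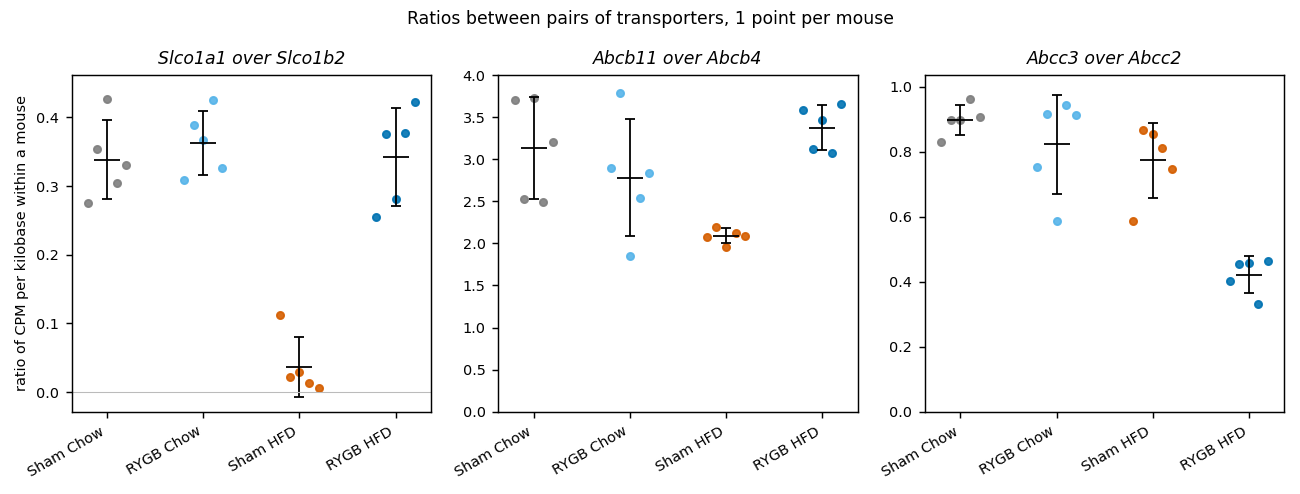
Points are the ratios of CPM per kilobase within single mice, horizontal bars are group means, error bars are SD (n = 5) and the vertical axes start at or below 0. *Slco1a1* over *Slco1b2* and *Abcb11* over *Abcb4* are lowest on average in Sham HFD (means 0.0364 and 2.09), and *Abcc3* over *Abcc2* is lowest in RYGB HFD (mean 0.421).

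*Abcc4* (ENSMUSG00000032849, chr14:118482692-118706219, minus strand) encodes MRP4, another pump toward blood, and was counted thinly, with 20 to 101 counts per mouse. The Sham HFD mice held 4.12, 3.88, 4.27, 4.85 and 3.60 CPM, the Sham Chow mice 2.08, 3.21, 2.36, 2.07 and 2.12 CPM and the RYGB HFD mice 2.28, 1.04, 1.73, 2.72 and 3.32 CPM. Sham HFD lay above both of these groups without overlap and overlapped with RYGB Chow (2.60 to 4.67 CPM). The log2 fold change was -0.91 for surgery on HFD (SE 0.25, adjusted p = 0.0150) and 0.80 for diet in sham mice (SE 0.24, adjusted p = 0.0238). The latter did not pass without Sham Chow replicate 5 (adjusted p = 0.0543) or Sham HFD replicate 4 (adjusted p = 0.0554). Surgery on chow gave a log2 fold change of 0.57 (adjusted p = 0.401) and diet in RYGB mice -0.68 (adjusted p = 0.137), neither of them called. The interaction of -1.48 (SE 0.35, adjusted p = 0.0182) had the opposite sign to that of the uptake carriers *Slco1a1* and *Slc10a1*. For these carriers, diet in RYGB mice gave only 0.13 and 0.14.

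Other genes of the pathway were counted from lists of regulators, carriers and synthesis enzymes. In Sham Chow vs. RYGB Chow, 0 of their tested genes were called, against 0.0488% of all tested genes higher and 0.00814% lower. Of 13 tested receptor partners and regulators (15 listed), 2 were higher in RYGB HFD than in Sham HFD, against 8.54% of all tested genes. They were the FXR partner *Rxra* (log2 fold change 0.29, adjusted p = 0.0245) and the hepatocyte factor *Hnf4a* (0.49, adjusted p = 0.0166). *Hnf4a* was also lower in Sham HFD than in Sham Chow (-0.43, adjusted p = 0.0267), as was *Rxrb* (-0.29, adjusted p = 0.0216). All 3 averaged lowest in Sham HFD. *Rxra* was not called for diet in sham mice (-0.09, adjusted p = 0.499), nor *Rxrb* for surgery on HFD (0.10, adjusted p = 0.496). *Hnf4a* was at 543 ± 56.1 CPM in Sham HFD and 761 ± 203 CPM in RYGB HFD. A link of these regulators to the members was not tested.

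Among 5 tested further sinusoidal carriers (7 listed), *Slc22a7*, an organic anion carrier, was higher on HFD in both sham (log2 fold change 0.89, adjusted p = 0.0310) and RYGB mice (1.58, adjusted p = 0.00372). *Slc51a* and *Slc51b*, which encode the basolateral bile acid exporter OSTα/β, did not reach the filter, with at most 6 and 19 counts.

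Against 8.54% of all tested genes, 2 of 6 tested further canalicular carriers (8 listed) were higher in RYGB HFD than in Sham HFD together with *Abcb11*. These were the sterol exporter *Abcg8* (log2 fold change 0.45, adjusted p = 0.00233) and the flippase *Atp8b1* (0.58, adjusted p = 0.00233). *Abcb1a*, a drug efflux pump, was higher in Sham HFD than in Sham Chow (1.11, adjusted p = 0.0137).

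Of 12 tested genes of bile acid synthesis and conjugation (13 listed), 4 were higher and 2 lower after RYGB on HFD, against 8.54% and 7.9% of all tested genes. HFD in sham mice went with 2 higher and 3 lower, against 10.9% and 10.7%. *Cyp7b1*, the oxysterol hydroxylase of the alternative pathway, averaged 75.8 CPM in Sham HFD and 226 to 275 CPM in the other groups. The log2 fold change was -1.86 for diet in sham mice (adjusted p = 9.89e-05) and 1.60 for surgery on HFD (adjusted p = 4.09e-04). *Cyp27a1*, the sterol hydroxylase of the same pathway, moved in the same directions (-0.68, adjusted p = 8.06e-05, and 0.49, adjusted p = 0.00172), as did *Cyp2c70*, which makes muricholic acids in mice (-1.07, adjusted p = 0.00200, and 0.78, adjusted p = 0.0186). *Amacr*, a racemase of side-chain shortening, was higher in RYGB HFD than in Sham HFD (0.43, adjusted p = 0.00303). *Hsd17b4*, a peroxisomal enzyme of the same step, was lower there (-0.46, adjusted p = 2.62e-04).

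The genes whose log2 CPM was most like that of a member were ranked by Pearson's r over the 20 mice, with r after removal of group means beside it. The libraries share depth and scaling, and the values are descriptions. For *Slco1a1* they included *Hsd3b5* (r = 0.97, 0.87 without group means) and *C6* (0.96, 0.78), and the r over all mice largely sets the Sham HFD group apart from the rest. The r without group means leans on the Sham HFD mice too, since *Slco1a1* ran from 10.4 to 234 CPM among them. In the 15 other mice it ran from 435 to 724 CPM. *Hsd3b5*, a steroid dehydrogenase gene known for its male-typical expression in mouse liver, was at 4.87, 0.370, 0.507, 0.0599 and 0.0438 CPM in Sham HFD and at 59.4 to 318 CPM in the 15 other mice. Sham HFD replicate 1 was the highest of its group for both genes.

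**Figure D5:**
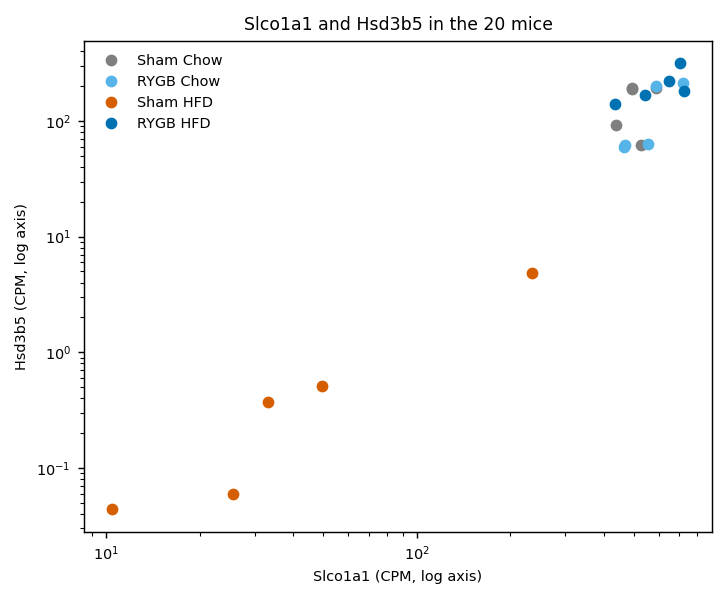
Each point is 1 mouse, with *Slco1a1* on the horizontal and *Hsd3b5* on the vertical log axis, both in CPM. The 5 Sham HFD mice lie apart at 10.4 to 234 CPM of *Slco1a1* and at most 4.87 CPM of *Hsd3b5*.

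For *Abcc3* the most similar genes were *Gsta1* (r = 0.92, 0.64 without group means), *Rnd2* (0.92, 0.56) and *Pgrmc1* (0.91, 0.57). The glutathione transferase *Gsta1* averaged 0.418 ± 0.444 CPM in RYGB HFD and 4.84 to 5.59 CPM in the other groups. For *Slc10a1* they were *Serpina1a* (0.90, 0.66), *Gm3839* (0.88, 0.70) and *Cyp2c54* (0.87, 0.68), and for *Abcb11* *Zfhx2* (0.90, 0.79), *Gpc4* (0.89, 0.74) and the complement gene *C3* (0.88, 0.74). *Abcc4* was closest to the pyruvate dehydrogenase kinase *Pdk4* (0.89, 0.80), *Nfe2l1* (0.88, 0.79) and *Cbarp* (0.86, 0.76). *Pdk4* was at 22.2 ± 7.0 CPM in Sham HFD and 6.04 ± 3.72 CPM in RYGB HFD, the same order as *Abcc4*.

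For the members with smaller differences between groups, r was 0.76 to 0.85 over all mice and 0.67 to 0.85 without group means. *Nr0b2* was closest to *Naip6* (0.83, 0.73), *Map7d1* (0.83, 0.67) and *Ptpn1* (0.82, 0.77), and *Nr1h4* to *Gm45909* (0.78, 0.85), *Ramac* (0.77, 0.76) and *Rbm22* (0.76, 0.73). *Abcb4* was closest to *AU040320* (0.83, 0.83), *Myo1c* (0.82, 0.79) and *Tmem56* (0.82, 0.84), *Abcc2* to *Palld* (0.84, 0.73), *Adamts5* (0.81, 0.70) and *Cfap54* (0.80, 0.75), and *Slco1b2* to *Kpna4* (0.85, 0.78), *Qk* (0.85, 0.84) and *Trim14* (0.84, 0.67).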

How the data were processed

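Liver RNA of 20 mice, 5 in each of 4 groups, was measured in poly-A selected, strand-marked (dUTP) libraries read as pairs of 150 bases. The authors trimmed reads with Trimmomatic 0.36, aligned them to mm10 with HISAT2 2.1.0 and deposited raw counts per Ensembl gene from featureCounts 1.5.0-p3, without normalization. The annotation release, the strand setting and the handling of reads mapping to several genes are not given in the sources used here. Symbols, positions and merged exon lengths were taken from GENCODE M21 (GRCm38).

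The counts were tested with edgeR 4.0.16 (R 4.3.3, quasi-likelihood, two-sided) in one model of the 4 groups with TMM factors, after a filter of 2 CPM in at least 3 mice, and p-values were adjusted by Benjamini-Hochberg over 12289 genes. Approximate 95% intervals are the log2 fold change with a normal multiple of its standard error. The biological coefficient of variation was 0.181. The procedure was tested on simulated data, in which all genes had this common spread and changes were made in RYGB HFD alone. Such data cannot show how it behaves for genes with a wider spread, such as *Slco1a1*. Counts are PCR reads without molecular identifiers, and p-values measure the spread between mice.

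The members and lists were chosen with earlier results of these data known. All members are named, with at most 5 called genes of each pathway list in order of adjusted p, and the 3 genes most similar to each member (log2 CPM with a prior count of 2). Some genes that meet this rule are not reported here. Alternatives were DESeq2 1.42.0, voom in limma 3.58.1, RLE factors, scaling to library size alone, no filter, models of only 2 groups, a replicate block and leaving out each mouse. DESeq2 without its cutoff on outlying counts was added after seeing the data. The labels name no sequencing batch. Python 3.11.15 with numpy 2.4.6, pandas 2.3.3 and matplotlib 3.10.9 made the tables and plots.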

Additional observations from a re-analysis of the deposited data

Results flagged for a closer look

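In 40 checks of 10 members in 4 groups, 5 had a mouse far from its group mates by Dixon's criterion for 5 values, a gap that chance gives in about 1 in 20 groups. *Slco1a1* was at 234 CPM in Sham HFD replicate 1 and between 10.4 and 49.4 CPM in the other 4 mice. *Abcb4* was at 662 CPM in RYGB Chow replicate 3, with the others between 413 and 462 CPM. *Abcc2* was at 846 CPM in RYGB Chow replicate 1 (others 609 to 666 CPM), *Slco1b2* at 1667 CPM in Sham Chow replicate 1 (others 1288 to 1393 CPM) and *Abcc4* at 3.21 CPM in Sham Chow replicate 2 (others 2.07 to 2.36 CPM).

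The effect of surgery differed between diets for 4 members by the interaction test of edgeR: *Slc10a1* (log2 0.73, adjusted p = 0.0118), *Slco1a1* (2.98, adjusted p = 0.0185), *Abcc3* (-1.02, adjusted p = 0.00333) and *Abcc4* (-1.48, adjusted p = 0.0182).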

How the results depend on the processing

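Of 1000 fold changes of members refitted without 1 mouse, 958 kept their direction and their side of the threshold, 19 changed side only and 23 changed sign. Of 385 under the other settings, 368 kept both, 15 changed side only and 2 changed sign. None that changed sign was called before or after (0 of 25), and all had a reported log2 value of at most 0.12 in size. With 1 mouse left out, those that changed sign ran as follows (log2). For surgery on chow, *Abcb11* ran from -0.069 to 0.081, *Slco1b2* from -0.022 to 0.082 and *Abcc3* from -0.098 to 0.060. For surgery on HFD, *Nr1h4* ran from -0.013 to 0.15 (-0.047 with library size only) and *Slco1b2* from -0.054 to 0.046 (0.0021 with the replicate block). For diet in RYGB mice, *Nr1h4* ran from -0.11 to 0.075, *Abcb4* from -0.15 to 0.065 and *Abcc2* from -0.058 to 0.075. In the interaction, *Nr0b2* ran from -0.25 to 0.025 and *Slco1b2* from -0.087 to 0.030. The number of members called ran, with 1 mouse left out, from 2 to 5 in Sham Chow vs. Sham HFD (2 without Sham Chow replicate 5 or Sham HFD replicate 4), from 5 to 6 in Sham HFD vs. RYGB HFD and from 4 to 5 in the interaction, and stayed at 0 in Sham Chow vs. RYGB Chow and at 1 in RYGB Chow vs. RYGB HFD. The labels do not say what the replicate numbers mean, and the data showed no sign that they pair the mice. Deviations of same-numbered mice had a mean r of -0.0066 (above 0.1 in 5 of 30 pairs), and those of differently numbered mice 0.0015. With the replicate block the members called were 0, 5, 4 and 1 in the 4 contrasts and 4 in the interaction.

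Called genes among all tested numbered 7 in Sham Chow vs. RYGB Chow, and 92 with DESeq2 (with or without its cutoff), 3 with limma-voom, 13 without the filter and 0 with only the 2 groups. In RYGB Chow vs. RYGB HFD they numbered 448, 751 with DESeq2 (with or without its cutoff) and 184 with only the 2 groups. For the interaction, 622 became 932 with DESeq2 and 934 with DESeq2 without its cutoff. The cause was not tested. Library size alone moved the median of all genes by 0.12 (log2) in Sham Chow vs. Sham HFD, and the share of higher calls from 50.3% to 80.4% there and from 52.0% to 26.6% in Sham HFD vs. RYGB HFD. It also called *Nr0b2* and *Slco1b2* in the former and *Abcc2* in the latter. Depth limits *Abcc4* most, at 20 to 101 counts.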

Other observations

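After removal of group means, the log2 levels of the receptor *Nr1h4* and of *Abcb11* ran against each other over the 20 mice (r = -0.75), the strongest of the 45 pairs of members, while *Abcb4* and *Abcc4* ran together (r = 0.61) and *Slc10a1* and *Abcc4* opposite (r = -0.54). *Nr0b2* and *Abcb11* had r = 0.34 on the same scale. The points share library scaling, and the values were picked after all pairs were seen.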
